A study of Rattus norvegicus with 4 samples.

Results

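The dual specificity MAP kinase phosphatases are the 10 rat genes Dusp1, Dusp2, Dusp4, Dusp5, Dusp6, Dusp7, Dusp8, Dusp9, Dusp10 and Dusp16. They were taken as a named family, and their probes were found by matching each non-control probe's transcript accession to the RefSeq gene table. All 10 were found, through 11 probes, among 16581 genes with a named probe. The probes were read on 1-colour Agilent arrays in NR8383 cells, a rat alveolar macrophage line begun from lung lavage of a normal rat. The cells, which had been through 20 passages and were seeded 48 h in 25 cm2 flasks in medium with 15% serum, received NM403, which is a nanotube of the multi-walled carbon kind, for 4 h at 0.8 cm2 per cm2. There was 1 group of 4 cultures, labelled as biological replicates, and all were exposed. Unexposed control cultures named in the design text were not analysed here, so the values describe exposed cells and no gene was tested for a response. A lone established line stands in for alveolar macrophages, and its cultures mix attached and floating cells.

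MAP kinases (ERK, JNK and p38) are switched on by phosphorylation of a threonine and a tyrosine in their activation loop. The phosphatases of this family remove both phosphates and switch the kinases off again. Several of their genes are themselves switched on by MAP kinase signalling, which makes a feedback loop, and in macrophages Dusp1 is known for limiting cytokine output after microbial stimulation. Dusp1, Dusp2, Dusp4 and Dusp5 encode inducible nuclear enzymes. Dusp6, Dusp7 and Dusp9 encode cytoplasmic enzymes that prefer ERK, and Dusp8, Dusp10 and Dusp16 encode enzymes that prefer JNK and p38.

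The upstream sequences of the inducible members Dusp1, Dusp2 and Dusp5 are shown. They are the 250 bases before the annotated start in RefSeq's rat assembly GRCr8, on the + strand. Each held matches to motifs of signal-regulated and growth-regulated transcription factors. The searched windows of Dusp9 and Dusp16, which are not shown, held matches too. No sequence was available for Dusp4, the other inducible member. The array design names another build, rn4, so no array coordinate is given. Capitals mark the cAMP response element TGACGTCA, its core TGACG, the E-box CACGTG and the CArG box, each searched on both strands. The CArG box is the site of serum response factor, and the cAMP response element that of CREB and ATF proteins.
Dusp1, chr10:17184603-17184852: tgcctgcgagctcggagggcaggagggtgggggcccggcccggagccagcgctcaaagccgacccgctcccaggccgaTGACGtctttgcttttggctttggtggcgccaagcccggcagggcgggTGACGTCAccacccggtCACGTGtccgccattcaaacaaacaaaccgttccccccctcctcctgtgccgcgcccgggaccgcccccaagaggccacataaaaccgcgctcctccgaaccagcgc
Dusp2, chr3:135009386-135009635: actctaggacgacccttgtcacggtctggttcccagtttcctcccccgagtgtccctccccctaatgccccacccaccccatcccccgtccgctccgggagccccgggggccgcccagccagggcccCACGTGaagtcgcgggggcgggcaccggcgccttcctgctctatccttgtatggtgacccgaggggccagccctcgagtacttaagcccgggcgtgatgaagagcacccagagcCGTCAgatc
Dusp5, chr1:262543524-262543773: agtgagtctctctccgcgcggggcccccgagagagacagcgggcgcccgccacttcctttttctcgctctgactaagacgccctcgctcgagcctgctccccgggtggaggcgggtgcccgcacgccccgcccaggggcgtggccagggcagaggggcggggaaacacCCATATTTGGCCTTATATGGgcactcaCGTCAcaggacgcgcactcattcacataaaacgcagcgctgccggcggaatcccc

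Windows of 300 bases (250 before and 50 after the start) were searched for 9 of the 10 members, all but Dusp4. The full cAMP response element lay in Dusp1 alone, at bases -124 to -117 counted from the start, and in 1.83% of 33469 windows of the same length. Its core lay in Dusp1, Dusp2, Dusp5 and Dusp16, 4 of the 9, against 21.2% of all windows; it reads CGTCA where it lies on the other strand. In Dusp1 the core lay at -172 to -168 and, on each strand, inside the full element. Dusp5 held 2 adjoining CArG boxes, CCATATTTGG at -82 to -73 and CCTTATATGG at -72 to -63, and 1.64% of windows held at least 1. The E-box was in Dusp1, Dusp2 and Dusp9, 3 of the 9, against 6.42% of all windows. The ETS motif CCGGAA matched in Dusp5 alone, at bases 5 to 10 after the start, against 15.0% of windows. No match was found in the 9 windows for the AP-1 motifs TGACTCA and TGAGTCA, the TATA motif TATAAA or the NF-kB motif, which 4.63%, 14.2% and 7.51% of all windows held. A match describes letters, not a bound site.

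Of each array's 58717 non-control spots, 45.9% to 50.8% were called well above background by the scanner software, the call used for detection below. Of 308 negative control spots per array, 7 to 11 were so called. The software marked replicate 4 for evaluation, with 2 quality measures out of range. Of 12 macrophage markers, 10 were detected on each of the 4 arrays, among them Cd68, Csf1r, Itgam and Lyz2, while Marco and Adgre1 were detected on none. Of other cell types' markers, 1 of 8 epithelial, 1 of 7 fibroblast and smooth muscle, 3 of 5 endothelial and 1 of 6 T and B cell genes were detected on all arrays. Epcam, Cdh1, Col1a1, Col3a1, Kdr and Cd3e were detected on none. Those detected on all arrays were Foxj1, Dcn, Pecam1, Cdh5, Vwf and Cd3d, and Vwf lay 0.76 ± 0.47 (log2, SD, n = 4) above the 75th percentile of detected probes. Their part in the levels of the phosphatases was not tested. Over the 7937 genes whose brightest probe was detected on all arrays, Pearson's r was 0.996 between replicates 1 and 3, 0.992 between 2 and 4, and 0.967 to 0.970 in the other pairs. Genes are not independent, so no p is given. With 4 arrays, precision is limited.

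In the exposed macrophages, Dusp2, Dusp5, Dusp6, Dusp10 and Dusp16 were well above background on all 4 arrays, 5 of 10 members. Across all named genes the share was 47.9%, so the family's share lay near the background. Dusp1 was detected on 3 arrays and Dusp7 on 2. Dusp4, Dusp8 and Dusp9 were detected on none. In bulk RNA, fewer expressing cells and less RNA per cell cannot be told apart. Nor can a probe that reads its transcript poorly be told from low expression, and Dusp4, Dusp8 and Dusp9 had 1 probe each. Each class of the family had at least 1 member detected on all arrays: Dusp2 and Dusp5 of the nuclear enzymes, Dusp6 of those that prefer ERK, and Dusp10 and Dusp16 of those that prefer JNK and p38.

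**Figure D1:**
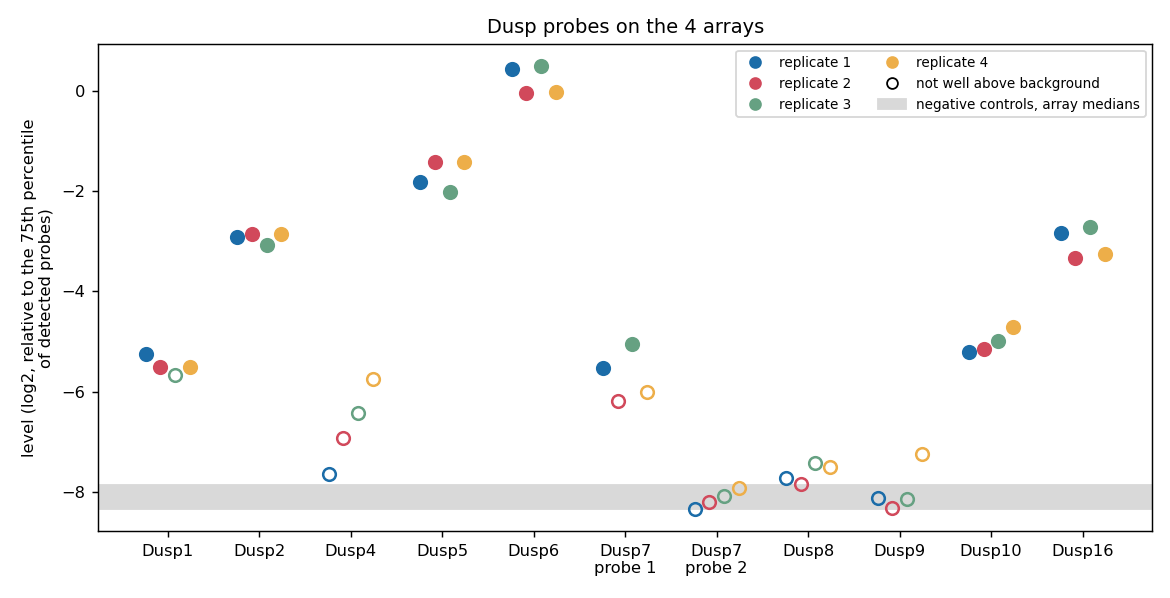
Level of each of the 11 Dusp probes on each array (vertical axis, log2, where 0 is the array's 75th percentile of detected probes); filled points were well above background, open points were not, and the grey band spans the arrays' median negative control level. Dusp2, Dusp5, Dusp6, Dusp10 and Dusp16 are filled on all 4 arrays, and Dusp8, Dusp9 and the second Dusp7 probe lie in or near the band, except Dusp9 on replicate 4 at -7.24.

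A level is the log2 processed signal minus the array's 75th percentile over detected probes, so 0 marks that percentile. Levels compare cultures for a given probe and give no order of genes, since probes differ in brightness. On this scale the median negative control lay between -8.34 and -7.85, and the dimmest spot called well above background between -6.23 and -5.63, depending on the array.

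Among the inducible nuclear enzymes, Dusp5 and Dusp2 were clearly expressed and Dusp1 was close to the limit of detection. Dusp5, whose enzyme inactivates ERK in the nucleus, had levels of -1.82, -1.42, -2.02 and -1.43 on replicates 1, 2, 3 and 4, from processed signals of 771, 940, 556 and 1032. Replicates 2 and 4 were high and replicates 1 and 3 low, with a mean of -1.67 ± 0.30 (SD, n = 4) and a 1.52-fold range. The probe was printed at 2 places, and its spots differed by an SD of 0.0336 to 0.140 within an array. The spots of replicates 2 and 4 read -1.52 to -1.34, and those of replicates 1 and 3 read -2.12 to -1.76.

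Dusp2, an inducible phosphatase first described in activated T cells, varied least of the detected members under the scaling used here. Its levels on the 4 arrays in order were -2.91, -2.86, -3.08 and -2.86, with a mean of -2.93 ± 0.10 (SD, n = 4) and a 1.16-fold range. Replicate 3 was the low array, and without it the SD was 0.0277. The SD of Dusp2 was larger than that of 15.7% of the genes detected on all arrays. It was 0.30 when each array was scaled on all non-control probes, 0.28 with quantile normalization and 0.21 when scaled on the median, so its small spread depended on the scaling. Dusp16 had a smaller SD than Dusp2 under all 3 of these, and Dusp6 under the first and the last.

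Dusp1, the immediate-early phosphatase that turns off p38 and JNK, gave weak signals of 71.2, 55.3, 44.1 and 60.8. Its levels were -5.25, -5.51, -5.68 and -5.51, and the call was missed on replicate 3, the lowest array. On every array the probe lay below the 99th percentile of the negative control spots, so its level cannot be told from the brightest of these. Dusp4, a nuclear phosphatase of ERK and JNK, read -7.65, -6.93, -6.43 and -5.75. No array called it well above background, and its order over the arrays is not taken as a change in transcript level.

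Dusp6 was the well measured member of the ERK-preferring class, with 10 spots per array. Its enzyme is held in the cytoplasm and its gene is a classical target of ERK signalling. Levels were 0.43, -0.04, 0.49 and -0.03 on replicates 1 to 4, from signals of 3668, 2450, 3164 and 2712. Replicates 1 and 3 were high and replicates 2 and 4 low, the reverse of Dusp5, with a mean of 0.21 ± 0.29 (SD, n = 4) and a 1.44-fold range. The spots of replicates 1 and 3 read 0.32 to 0.64, and those of replicates 2 and 4 read -0.13 to 0.04, so they did not overlap. A spot each on replicates 2 and 4 was left out as an outlier. With these kept, the ranges under the scaling used here still did not meet, since the highest spot of replicates 2 and 4 was then 0.24. This grouping of the arrays was read off the same values, and repeat spots are not replicate cultures. Scaled on all non-control probes, Dusp6 read 3.63, 3.51, 3.65 and 3.51, and the spots were not compared on that scale. Spot SDs within an array were 0.0468 to 0.0922, which cover technical spot noise alone. The SD of 0.29 between arrays depended on the scaling, and it was 0.0744 with all non-control probes.

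Dusp7, a close relative of Dusp6, was read by 2 probes that disagreed. The brighter probe had levels of -5.53, -6.18, -5.05 and -6.01, and was well above background on replicates 1 and 3 alone. These were also the high arrays of Dusp6. The other probe read -8.34, -8.20, -8.08 and -7.93, at the level of the negative controls, and was called on no array. Dusp9, known for its roles in placenta and insulin-responsive tissue, read -8.11, -8.31, -8.14 and -7.24. It too was called on none, and its highest array was replicate 4.

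In the class that prefers JNK and p38, Dusp16 and Dusp10 were detected and Dusp8 was not. Dusp16, which shuttles between nucleus and cytoplasm and prefers JNK, had levels of -2.84, -3.34, -2.71 and -3.25, from signals of 378, 249, 345 and 291. As for Dusp6, replicates 1 and 3 were high and replicates 2 and 4 low. The mean was -3.04 ± 0.31 (SD, n = 4) and the range 1.54-fold, the widest of the 5 detected members under the scaling used here.

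Dusp10, which acts on p38 and JNK, was detected at a low level of -5.21, -5.14, -4.99 and -4.71. Replicate 4 was high and replicate 1 low. The mean was -5.01 ± 0.22 (SD, n = 4), with an SD of 0.11 without replicate 4. The probe was called on all arrays but lay below the 99th percentile of the negative control spots on each, which reduces the count of detected members to 4 under that rule. Dusp8, a phosphatase best known from brain and heart, read -7.72, -7.84, -7.43 and -7.51 and was called on none.

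**Figure D2:**
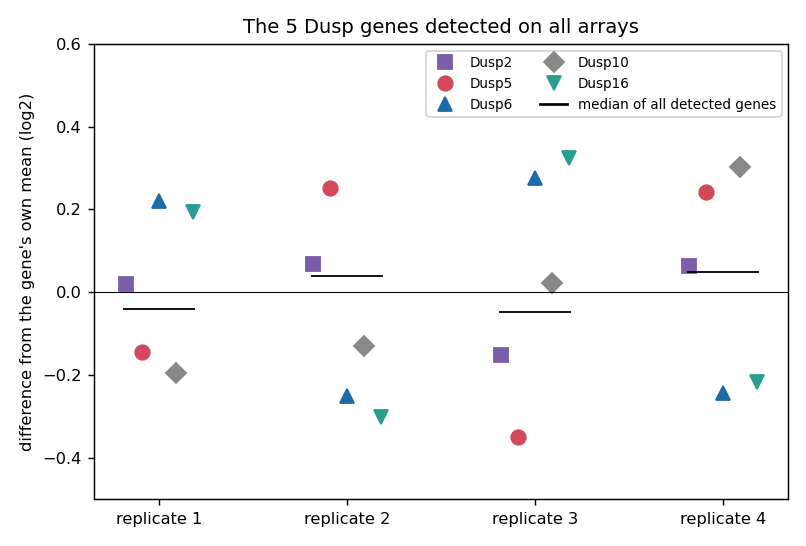
Difference of each of the 5 detected Dusp genes from its own mean over the arrays (vertical axis, log2), by replicate; black bars are the median over 7937 detected genes, which lies between -0.05 and 0.05. Dusp6 and Dusp16 are above 0 on replicates 1 and 3 and below it on replicates 2 and 4, Dusp5 is the reverse, and Dusp10 is highest on replicate 4.

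The spread of the 5 detected members was that of ordinary genes. Their median SD was 0.29, against 0.23 over the 7937 detected genes, and single SDs ran from 0.10 for Dusp2 to 0.31 for Dusp16. Dusp16, Dusp5 and Dusp6 had SDs larger than those of 65.6%, 64.3% and 62.1% of these genes, and Dusp10 larger than 46.6%. None of the 5 had a range above 2-fold between its highest and lowest culture, where 13.6% of detected genes did. Of the 5, 4 had replicates 1 and 3, or replicates 2 and 4, as their highest arrays, and Dusp10 was the exception under the scaling used here. Scaled on all non-control probes or on the median, or with quantile normalization, Dusp10 too had replicates 2 and 4 highest. As 81.8% of detected genes showed 1 of these orders, the pattern is shared with the arrays at large and is not particular to the family.

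Ratios between members within an array do not depend on a scaling factor per array. Over the 10 pairs of detected members the fold range of the ratio between arrays ran from 1.07 to 2.34, and it was above 2-fold in 2 pairs. Over all pairs of detected genes 32.3% were above 2-fold, so the members' ratios did not stand out. The log2 ratio of Dusp5 to Dusp16 was 1.03, 1.92, 0.69 and 1.82 on replicates 1 to 4, a 2.34-fold range, or 1.85-fold without replicate 3. The log2 ratio of Dusp5 to Dusp6 was -2.25, -1.38, -2.51 and -1.40, a 2.19-fold range, or 1.82-fold without replicate 3. The log2 ratio of Dusp6 to Dusp16 was 3.27, 3.30, 3.20 and 3.22, a 1.07-fold range and the smallest of the 10 pairs. That range was 1.34-fold with quantile normalization and 1.18-fold with normexp background correction. The share of all pairs of detected genes with so small a range was not computed. Only the change of a ratio between arrays carries information here, because its size also depends on the brightness of the probes.

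**Figure D3:**
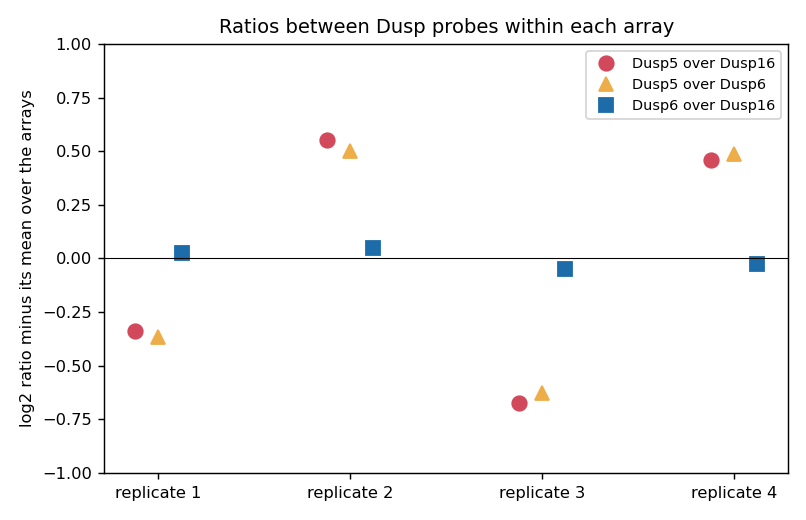
Log2 ratios between Dusp probes within each array, each minus its mean over the 4 arrays (vertical axis), by replicate. Dusp5 over Dusp16 and Dusp5 over Dusp6 are above 0 on replicates 2 and 4 and below it on replicates 1 and 3, while Dusp6 over Dusp16 stays within a 1.07-fold range.

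How far each member varied depended on the scaling. Taking the 75th percentile over all non-control probes put the median detected gene -0.21, 0.23, -0.25 and 0.23 from its own mean on replicates 1 to 4, against -0.04, 0.04, -0.05 and 0.05 under the scaling used here. With it, the SD of Dusp5 was 0.51 and that of Dusp10 was 0.37, whereas Dusp6 had an SD of 0.0744 and Dusp16 of 0.10. Scaled on the median of detected probes, Dusp6 had an SD of 0.17 and Dusp16 of 0.19. Quantile normalization gave Dusp16 an SD of 0.12 and Dusp10 of 0.41. The direction was steadier than the size. Under these scalings and normexp, replicates 1 and 3 were the highest for Dusp6 and Dusp16, and replicates 2 and 4 were the highest for Dusp5 and Dusp2. Dusp10 had replicate 4 highest and replicate 1 lowest in each. Its probe lay below the 99th percentile of the negative control spots on every array, and replicate 4 was the array marked for evaluation. Under the scaling used here the median negative control was also lowest on replicate 1, at -8.34, and highest on replicate 4, at -7.85. The order of Dusp10 is therefore not taken as a change in transcript level.

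**Figure D4:**
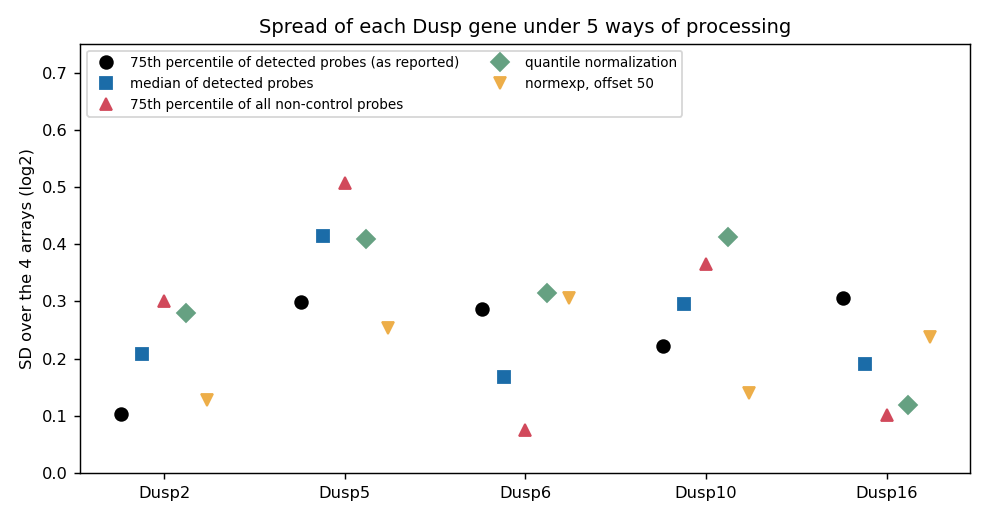
SD over the 4 arrays (vertical axis, log2) of each of the 5 detected Dusp genes under 5 ways of processing, 1 marker each. The SD of Dusp5 goes from 0.25 to 0.51 and that of Dusp6 from 0.0744 to 0.32.

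The other genes of the pathway were taken from lists. Of 75 genes on 6 lists, 69 had a named probe and 47 (68.1%) were detected on all arrays, beside 47.9% of all named genes and 5 of 10 phosphatases. By the software's weaker call, positive and significant signal, 54 of the 69 and 9 of the 10 were detected. Under the stricter rule, above the 99th percentile of the negative control spots, 35 of the 69 and 4 of the 10 were. Which share is larger thus depends on the call, and the difference was not tested. The share of all named genes under the weaker call or the stricter rule was not computed, so these counts have no background beside them. Of 11 MAP kinase genes, 7 were detected on all arrays. Under the scaling used here Mapk14, the main p38 kinase, was nearly constant at 1.05, 1.07, 1.02 and 1.02. Levels and spreads of single pathway genes are given under this scaling alone and were not computed under the others. Mapk9, which encodes JNK2, read -0.99, -1.53, -0.86 and -1.54. Its replicates 1 and 3 were high, as for Dusp6 and Dusp16. As 81.8% of detected genes had replicates 1 and 3, or replicates 2 and 4, highest, such likeness is not particular to these genes. Mapk6, an atypical MAP kinase, read -1.95, -2.34, -2.14 and -2.50. The p38 genes Mapk11 and Mapk12 and the JNK gene Mapk10 were detected on none.

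Upstream, detection on all arrays held for all 7 MAP kinase kinase genes and 9 of 11 MAP kinase kinase kinase genes. Map2k1, an activator of ERK, had a level of 0.92 ± 0.08, and Map2k3, an activator of p38, of 1.58 ± 0.33 (SD, n = 4). Map2k6, another p38 activator, had an SD of 0.36, and Map2k7, a JNK activator, of 0.30. Map2k6 and Map2k7 both lay below the 99th percentile of the negative control spots on every array. Map3k2 and Map3k7, which encodes the TAK1 kinase, had 2.61-fold and 2.55-fold ranges, Map3k1 had a 1.87-fold range and Map3k3 a 1.06-fold range. Of the kinases that MAP kinases activate, 8 of 9 were detected on all arrays. Rps6ka3, which encodes RSK2, read -3.28, -4.84, -3.37 and -4.89, the widest of that list, and Mknk1 had the smallest SD, 0.12. Mapkapk3 and Mknk2 had SDs of 0.31 and 0.29, and Rps6ka2 was detected on none.

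The other brakes on the pathway were detected in part. Of 15 measured genes, 8 were above background on each array, 2 on some and 5 on none. Spry2, Spry4 and Spred2, which restrain signalling to ERK, the phosphatase gene Ptprr, and Zfp36, whose protein destabilises cytokine mRNA, were detected on none. Spred1 read -3.64, -5.22, -3.60 and -4.84, with replicates 1 and 3 high as for Dusp6. On replicates 2 and 4 Spred1 lay below the 99th percentile of the negative control spots. The Ras inhibitor gene Rasa1 had a 2.79-fold range, the adaptor gene Dok2 an SD of 0.27 and the phosphatase gene Ppm1d a 1.03-fold range. Among the atypical dual specificity phosphatases, which lack the kinase-binding domain of the family, 8 of 16 were detected on all arrays and 8 on none. Under the scaling used here Dusp3, which acts on ERK and JNK, was steady at 0.57 ± 0.08, while Dusp18 and Dusp19 had SDs of 0.39 and 0.35. Styx, a catalytically inactive relative, read -1.49, -2.88, -1.74 and -3.27, a 3.42-fold range. Those not detected were Dusp12, Dusp13b, Dusp15, Dusp21, Dusp23, Dusp26, Dusp29 and Styxl2.

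**Figure D5:**
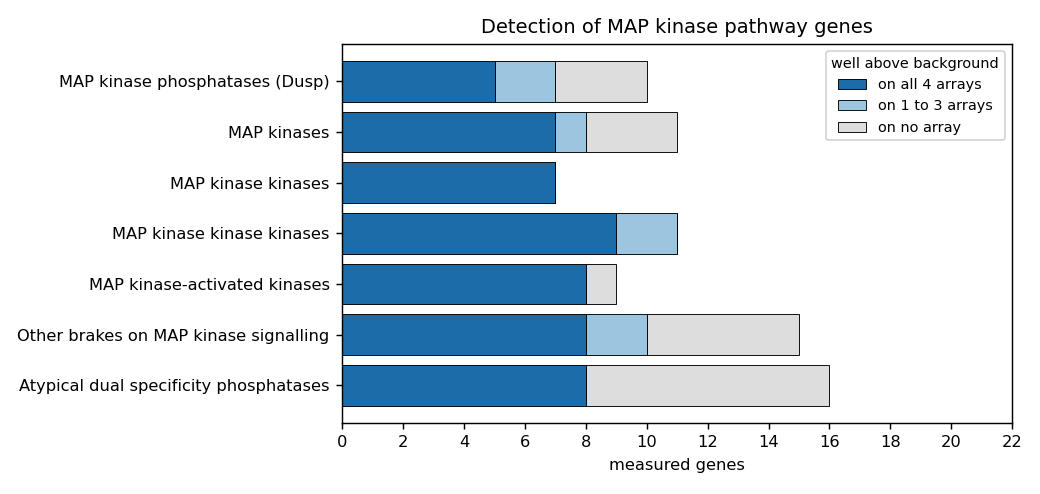
Number of measured genes (horizontal axis) of the Dusp family and of 6 pathway lists that were well above background on all 4 arrays, on 1 to 3 arrays or on none. The family has 5, 2 and 3 genes in these classes, and all 7 MAP kinase kinase genes are in the first.

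Under the scaling used here Dusp16 had the largest SD of the detected members, so genes of like profile were sought for it. Among 7932 other detected genes, Sbds and Stau2 were among the closest, with root mean square differences from Dusp16 of 0.0152 and 0.0175 over the 4 mean-centred arrays. Sbds, for example, read -2.60, -3.06, -2.45 and -2.98. In all, 430 genes lay within 0.1 of Dusp16, so with 4 arrays this likeness is common. The differences between profiles do not depend on a scaling factor per array, but the choice of Dusp16 does. Dusp5 had the largest SD when arrays were scaled on all non-control probes or on the median, Dusp10 with quantile normalization and Dusp6 with normexp.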

How the data were processed

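Per the file headers, the deposited values are the scanner intensity of each spot. The software, by the submitters' processing notes, was Agilent Feature Extraction 11.0.1.1. Per the same headers it removed background and spatial trends inside an array and did not normalize arrays to each other. Flags, a further deposited column type, were set by that software. Outlier spots (623 to 1016 per array) were left out; 0 non-control spots were saturated. Repeat spots were combined as mean log2 signals, and a probe was detected where over 50% of its spots were called. As 34.2% of 45598 probes were detected on all arrays, each array was scaled on the 75th percentile of those. Names came from RefSeq's GRCr8 gene table (21109 probes, 46.3%). A gene took its brightest probe's level and was detected if any probe was. With 1 group, no test was made. Members and lists were chosen with earlier results of these data known. Every member was named; of each pathway list, the 3 largest and the smallest SD and each gene never detected; and the 3 genes most like the member of largest SD. Some genes that this rule names are not reported here. Alternatives were other detection rules, scalings, quantile normalization and normexp (limma 3.58.1, R 4.3.3; offset 50, on the spot median in place of the planned spot mean), and leaving out each replicate. The scaling code was checked on simulated arrays with independent noise and a constant offset per array. Such a check does not show which scaling suits these data. Python 3.11.15 was used.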

Additional observations from a re-analysis of the deposited data

How the results depend on the processing

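With the software's weaker call (positive and significant signal), 9 members counted as detected on all 4 arrays in place of 5, all but Dusp9. With members detected on at least 1 array, 1 gene, Dusp7, had a range above 2-fold in place of 0. Leaving out each replicate in turn gave 5 to 6 detected members and a median SD of 0.26 to 0.30. Of 25 SDs of single members under other scalings, backgrounds or spot filters, 12 moved by over 1.5 times. Without 1 replicate, 2 of 20 did, Dusp2 without replicate 3 and Dusp10 without replicate 4. Replicates 1 and 3, and replicates 2 and 4, were the most alike. Leaving out 1 array always kept an array of each pair, so these runs say little about differences between the pairs. The ratios were recomputed with alternatives chosen after seeing the data, and Dusp5 to Dusp16 ranged from 1.85-fold to 2.34-fold over them. No paired analysis was possible because there was 1 group. Dim probes such as Dusp1, Dusp7 and Dusp10 are limited by signal over background. None of 35 named values had an outlying array by Dixon's criterion for 4 samples.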
